A study of Mus musculus with 4 samples.

Results

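The ribosome biogenesis and nucleolar genes described here are 48 mouse genes that make, modify and assemble ribosomal RNA or fill the nucleolus. They were given as a list of symbols and matched to the counted genes by Ensembl identifier, and all 48 were found among the 50600 genes counted. The rule used no measured value, but the members were chosen with earlier results of these data known. They were measured in primary mouse T-helper 17 (Th17) cells, CD4 T cells that make interleukin-17, of strain C57BL/6NJ. The series holds 4 RNA-seq libraries of 1 group, called replicates 1 to 4 after their labels, with no second genotype, treatment or time, so the data allow comparisons between genes and between replicates only. The labels give age as unknown and sex as not collected, and they give each library its own biosample but all of them a single donor identifier. Which cultures came from separate animals is not stated, so the spread between libraries may be technical in part.

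Ribosomes are built in the nucleolus. RNA polymerase I copies the ribosomal DNA into a long precursor, small nucleolar RNAs (snoRNAs) packed with proteins guide methylation and pseudouridylation of it, and large sets of assembly factors fold, cut and export the small and the large subunit. Activated T cells enlarge their nucleoli as they grow and divide, and the transcription factor Myc, which binds the E-box CACGTG, is known to raise many genes of this pathway. Most of the roles named below were worked out in yeast and human cells.

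Gene counts summed to between 24696730 and 37025016 fragments a library, and the 48 genes held between 1777 and 211498 fragments each in a library, so counting error was small for every member. The cell label was checked against markers. All 10 T-cell and Th17 markers were present, with Cd4, the co-receptor of helper T cells, at a level of 237 ± 16.6 TPM (SD, n = 4, as for every ± below). TPM, the level used throughout, is the count over gene length as a share of that sum over all genes of the library. Of 23 markers of B, myeloid, CD8, natural killer, erythroid, stromal and epithelial cells, 10 had no fragment and 3 had at least 1 TPM in each library, and their summed level lay between 19.0 and 27.6 TPM. Their part in any value below was not tested.

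The libraries did not all come from animals of the same sex, although the labels give a single donor. In replicates 1 to 4, Xist, the RNA of X inactivation, was at 186, 161, 0.687 and 0.721 TPM, and Ddx3y, on chromosome Y, was at 0.442, 0.446, 88.6 and 83.2 TPM. The counts of all genes paired in the same way. Their chi-square per degree of freedom was 3.41 between replicates 1 and 2 and 3.66 between replicates 3 and 4, against 6.39 to 7.95 in the other pairs of libraries. The labels give no groups within the 4 libraries, so none were compared.

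Every member was well above detection. Of the 48 genes, 44 (91.7%) had at least 100 TPM in each library, against 19.4% of the 9761 protein-coding genes that had at least 1 TPM in each library (the detected coding genes) and 9.39% of all genes with a fragment. All 48 had at least 50 TPM in each library, against 35.9% of the detected coding genes. The median member was at 296.9 TPM and the median of the detected coding genes at 31.2 TPM, 9.51-fold apart. Wdr12, the lowest member, was still at percentile 64.6 of the detected coding genes, and the median member was at percentile 94.4. Npm1, Ncl and Ddx21 passed 1000 TPM in every library, a level reached by 1.21% of the detected coding genes. With either transcript length (described below) Ddx21 was under that level, at 838 and 813 TPM. The members together made 2.30% ± 0.05 of all TPM. In bulk RNA, more cells with a transcript and more RNA per cell cannot be told apart.

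**Figure D1:**
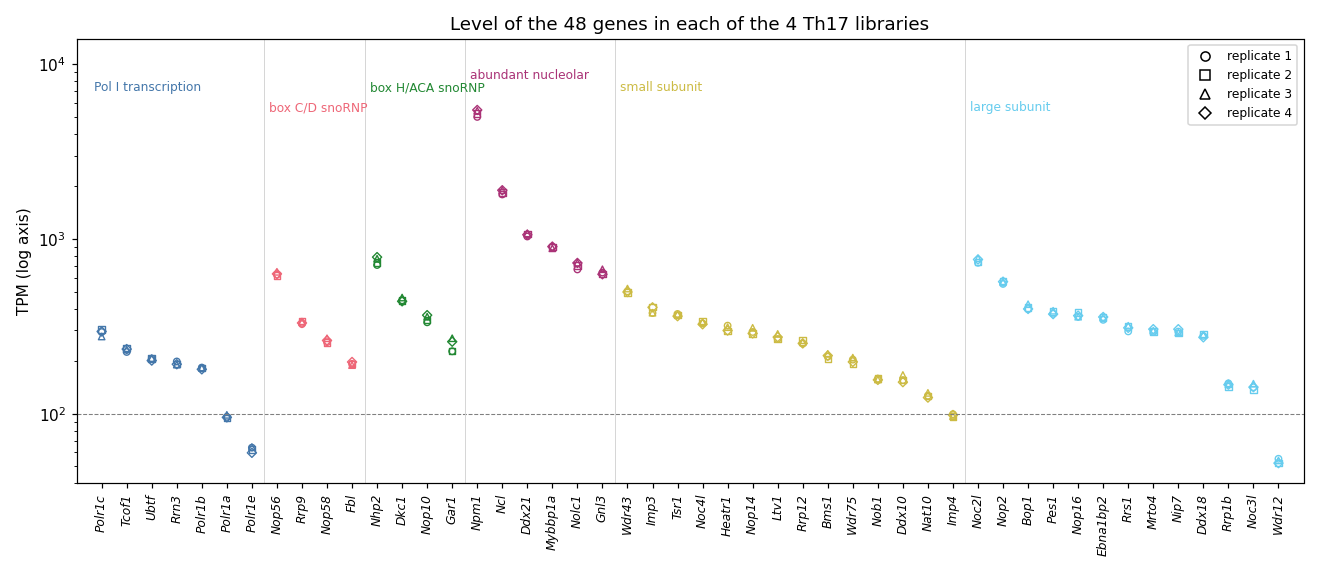
Level in TPM (log axis) of each of the 48 genes in the 4 libraries (one symbol per replicate), grouped by role and ordered by mean within a role. The dashed line marks 100 TPM. Npm1 stands at the top, between 5004 and 5482 TPM, and Polr1a, Polr1e, Imp4 and Wdr12 lie under the line in every library, while symbols of one gene mostly lie on top of each other.

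With summed exon lengths, the order of levels was clear at the top and blurred in the middle. Ranked by mean, 18 of 47 neighbouring pairs had ranges over the 4 libraries that did not overlap and 29 had ranges that did. Npm1, Ncl, Ddx21 and Mybbp1a were each apart from the next gene down, as were Nop56, Nop2, Wdr43 and Dkc1. At the bottom, Polr1a, Polr1e and Wdr12 were also apart from one another. The long middle stretch, from Bop1 down to Nop16 and from Rrs1 down to Tcof1, held no gene apart from its neighbour. No p is attached to this order, which changes with the transcript lengths described below. With the longest coding transcript, Nop56 (994 TPM) and Mybbp1a (863 TPM) were above Ddx21 (838 TPM). With the principal transcript, Nop58 (1148 TPM) and Nop56 (964 TPM) were above Mybbp1a (837 TPM) and Ddx21 (813 TPM). Npm1 and Ncl stayed the highest with either.

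The start regions of 8 members held the letters CACGTG, the E-box that Myc and Max bind, the window being 300 bases around an annotated start (250 before it and 50 from it on). RefSeq promoters (GRCm38.p6) were matched for 42 members, with 51 promoters among them. None was matched for Fbl, Npm1, Bop1, Rrs1, Rrp12 and Tcof1, so these were not scanned. The sites are shown because they fall across roles, from polymerase I initiation (Rrn3) through the small subunit (Imp4, Ltv1, Tsr1, Wdr43) and the large (Nop2, Pes1) to the abundant protein Mybbp1a, and no scanned gene of the snoRNA particles is among them. Each runs 5′ to 3′ on the strand of its gene, and capitals mark the E-box, which reads the same on both strands.
Rrn3, chr16:13780464-13780509, plus strand: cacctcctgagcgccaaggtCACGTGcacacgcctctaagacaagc
Rrn3, chr16:13780631-13780676, plus strand: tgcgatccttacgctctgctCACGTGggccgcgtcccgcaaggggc
Imp4, chr1:34439688-34439733, plus strand: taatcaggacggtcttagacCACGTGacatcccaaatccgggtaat
Nop2, chr6:125131803-125131848, plus strand: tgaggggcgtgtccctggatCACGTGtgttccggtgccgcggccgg
Pes1, chr11:3963957-3964002, plus strand: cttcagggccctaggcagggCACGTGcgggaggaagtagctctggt
Wdr43, chr17:71616212-71616257, plus strand: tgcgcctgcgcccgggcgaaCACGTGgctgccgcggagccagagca
Tsr1, chr11:74898084-74898129, plus strand: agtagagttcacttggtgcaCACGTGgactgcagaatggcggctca
Ltv1, chr10:13193088-13193129, minus strand: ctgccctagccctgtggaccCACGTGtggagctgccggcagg
Mybbp1a, chr11:72441347-72441376, plus strand: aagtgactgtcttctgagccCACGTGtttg

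Counted from the annotated start, with its first base as 1, the E-box began at -215 and -48 in Rrn3, at -121 in Imp4 and at -60 in Nop2. It lay in the transcribed part in the other 5 genes, at 3 in Pes1, 18 in Wdr43, 25 in Tsr1, 29 in Ltv1 and 41 in Mybbp1a. As a share of genes with a promoter, 8 of 42 members (19.0%) held it, against 12.6% of 7858 detected coding genes and 8.09% of all 27025 genes with a promoter. Other motifs were counted the same way, on both strands. CCGGAAG, the core letters of ETS-factor sites, was in 38.1% of members, against 23.7% of the detected coding genes and 9.93% of all genes. CCAAT was in 35.7% of members, against 43.8% of the detected coding genes and 41.1% of all genes. GGGCGG, the GC box, was in 71.4% of members, against 71.4% of the detected coding genes and 38.2% of all genes. TATAAA was in 4.76% of members, against 7.62% of the detected coding genes and 15.7% of all genes. Median GC content was 59.3% in members' promoters and 61.3% in those of the detected coding genes. These are counts of letters, with no test, and they are too few to tell one role from another. The 8 E-box genes had levels from Imp4 at 97.8 ± 1.30 TPM to Mybbp1a at 898 ± 9.09 TPM.

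The 7 genes of ribosomal DNA transcription were the lowest role as a whole, with a median of 193.8 TPM and 5.51% of the members' TPM. Polr1c (ENSMUSG00000067148.15, chromosome 17, 46243920 to 46248054 in mm10), a subunit that RNA polymerase I shares with polymerase III, led at 294, 303, 277 and 296 TPM in replicates 1 to 4. Polr1e (ENSMUSG00000028318.14, chromosome 4, 45018583 to 45036565), a subunit found in polymerase I, was lowest at 63.9, 62.2, 64.5 and 59.7 TPM. Replicate 3 was lowest for Polr1c and highest for Polr1e, so the ratio between them moved more than either gene, at 4.68 ± 0.299. Tcof1, the treacle protein that recruits the transcription machinery to ribosomal DNA, was at 233 ± 4.92 TPM, and Ubtf, the factor that keeps ribosomal DNA open, at 206 ± 2.94 TPM. Rrn3, the initiation factor that ties the polymerase to the promoter, was at 194 ± 3.60 TPM. The catalytic core was uneven. Polr1b, the smaller of its large subunits, was at 182 ± 1.87 TPM, and Polr1a, the largest subunit, at 96.1 ± 1.71 TPM, a ratio of 1.90 ± 0.033.

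The 4 box C/D genes encode the proteins of the snoRNA particles that methylate ribosomal RNA, and had a median of 297.1 TPM. Nop56 (ENSMUSG00000027405.16, chromosome 2, 130274430 to 130279313), a scaffold protein, led at 624, 617, 649 and 632 TPM in replicates 1 to 4. Fbl (ENSMUSG00000046865.7, chromosome 7, 28169710 to 28179269), fibrillarin, the methyltransferase, was lowest at 193, 193, 190 and 198 TPM. The libraries did not share an order in these genes, since replicate 3 was highest for Nop56 and lowest for Fbl. Rrp9, the protein particular to the U3 particle, was at 333 ± 5.90 TPM and Nop58, the partner scaffold of Nop56, at 261 ± 6.83 TPM. The ratio of Nop56 to Nop58 was 2.43, 2.42, 2.40 and 2.41 in replicates 1 to 4. That coefficient of variation, 0.536%, was under the 0.884% that counting error alone would give. The variation was under counting error in 2 of the 23 pairs of members examined, the other being Nhp2 and Nop10.

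The levels of this role depended strongly on which gene length was used. The deposited length sums the exons of all isoforms, which is 10758 bases for Nop58 and 4209 bases for Fbl, against 1713 and 1197 bases in the principal transcript of the annotation. With principal transcript lengths, chosen as an alternative after seeing the data, a member with an unchanged length fell to 0.70 of its TPM because the total is shared out anew. On that scale Nop58 was 4.40-fold higher at 1148 TPM, Fbl 2.46-fold higher at 476 TPM and Nop56 1.53-fold higher at 964 TPM. Nop56 to Nop58 then stood at 0.840, so which scaffold gene was higher turned round with the length. With the longest protein-coding transcript, which is 9507 bases for Nop58, the ratio was 4.66. Nop56 to Fbl was 3.26 ± 0.107 with summed exons and 2.03 ± 0.067 with either transcript length. Nop56 was above Fbl under all 3 lengths, but Fbl was the lowest of the role with summed exons only. The lowest was Rrp9 with principal transcripts, at 431 TPM, and Nop58 with the longest, at 213 TPM.

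**Figure D2:**
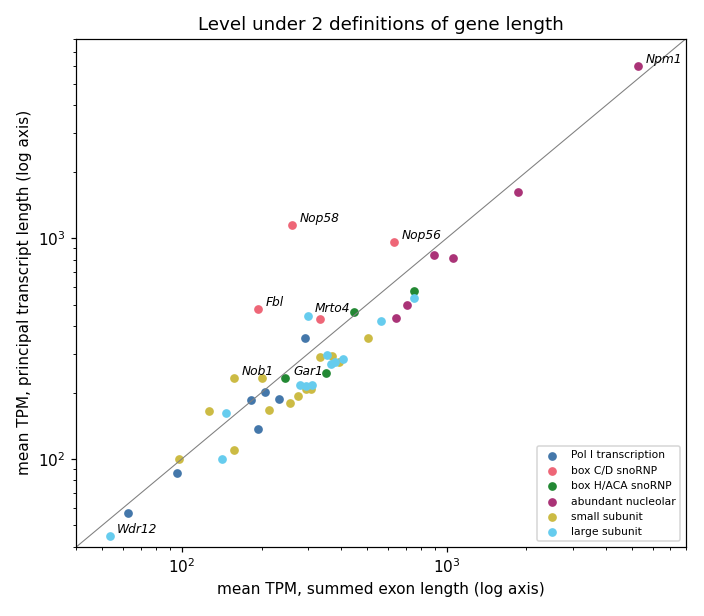
Mean TPM of each member with the summed exon length (horizontal, log axis) against mean TPM with the length of the principal transcript (vertical, log axis), coloured by role, with the line of equality. Most genes lie under the line, many at about 0.70 of their level, and Nop58, Fbl, Nop56, Mrto4 and Nob1 are the labelled genes furthest above it.

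Several members also carry snoRNAs within their genes. The annotation places 21 snoRNA genes on the same strand inside 7 members, of which 5 lie in Nop56, 4 in Nop58, 3 each in Ncl, Gnl3 and Wdr43, 2 in Tsr1 and 1 in Dkc1. Few fragments were counted for them, and 10 of the 21 share bases with exons of their host on the same strand in GENCODE M21, a later release than the vM13 used for counting. All 7 listed at 0 are among these 10. By default the counting program leaves out fragments that overlap more than 1 gene, so a 0 there does not show that no fragment fell on the snoRNA. The highest, Snord53 in Wdr43, had 92, 64, 95 and 97 fragments in replicates 1 to 4. The assay is labelled as total RNA-seq but with a link to a poly(A) library protocol, and how well so short an RNA is captured was not tested. Snord69, in the GTPase gene Gnl3 (nucleostemin), had 281 fragments in all and is shown as an example of the RNA that the box C/D proteins bind, with capitals for the box C letters TGATGA near its 5′ end and the box D letters CTGA near its 3′ end.
Snord69, chr14:31014287-31014366 (GRCm38), minus strand: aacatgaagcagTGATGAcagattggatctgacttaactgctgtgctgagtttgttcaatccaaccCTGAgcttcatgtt

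The 4 box H/ACA genes encode the core of the pseudouridylation particle, which also binds telomerase RNA, and had a median of 399.6 TPM. They hold the one member that varied between replicates. Nhp2 (ENSMUSG00000001056.3, chromosome 11, 51619735 to 51623714), an RNA-binding subunit, led at 710, 736, 772 and 788 TPM in replicates 1 to 4. Dkc1, dyskerin, the pseudouridine synthase, was at 448 ± 9.92 TPM. Nop10, a small subunit that binds dyskerin, was at 334, 345, 359 and 367 TPM, with replicate 1 lowest and replicate 4 highest as in Nhp2. The ratio of Nhp2 to Nop10 was 2.14 ± 0.00998, a coefficient of variation of 0.466% against 1.98% expected from counting error alone. The ratio of Nhp2 to Dkc1, 1.68 ± 0.0824, varied by 4.91%, with replicate 1 lowest and replicate 4 highest.

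Gar1 (ENSMUSG00000028010.16, chromosome 3, 129824912 to 129831396, minus strand), the subunit that joins the H/ACA particle last, was the lowest of the 4. It was at 228, 228, 270 and 258 TPM in replicates 1 to 4. Replicates 3 and 4 were above replicates 1 and 2, with nothing between them, and the highest library was 1.19-fold over the lowest. Whether a gene varied more between the 4 libraries than genes of its abundance was asked of all genes together, by the residual dispersion of edgeR's quasi-likelihood fit over its abundance trend. Of 11847 genes tested, 36 (0.304%) varied at an adjusted p under 0.05, and 1 of the 48 members did. That member was Gar1, with a dispersion 11.4 times the trend (edgeR, Benjamini-Hochberg adjusted p = 0.0273). The call was lost with limma-trend (adjusted p = 0.135), with a prior without robust estimation (adjusted p = 0.105) and without each replicate in turn (adjusted p between 0.102 and 0.293). It held with DESeq2 size factors (adjusted p = 0.0238) and with no filter on low counts (adjusted p = 0.00157).

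The levels of Gar1, which lies on chromosome 3, followed the same arrangement of libraries as Xist, Ddx3y and the pairing over all genes. Gar1 was not alone in this. Other members, among them Nhp2, Nop10, Ncl, Npm1, Nolc1 and Noc2l, also had replicates 3 and 4 both above replicates 1 and 2 by TPM, and others, such as Dkc1, did not. The share of all genes tested with this arrangement was not counted, so it cannot be called particular to the members. The fit treats the 4 libraries as 1 group, with no term for that arrangement, and its part in the call was not tested. Dkc1, the member on chromosome X, had a dispersion of 0.424 times the trend (edgeR adjusted p = 0.993). The annotated promoter of Gar1 is shown because this was the variable member. It holds no E-box and 1 ETS core, in capitals as CTTCCGG, the reverse complement of CCGGAAG, and has 63.0% GC.
Gar1 promoter, chr3:129831347-129831646 (GRCm38.p6), minus strand: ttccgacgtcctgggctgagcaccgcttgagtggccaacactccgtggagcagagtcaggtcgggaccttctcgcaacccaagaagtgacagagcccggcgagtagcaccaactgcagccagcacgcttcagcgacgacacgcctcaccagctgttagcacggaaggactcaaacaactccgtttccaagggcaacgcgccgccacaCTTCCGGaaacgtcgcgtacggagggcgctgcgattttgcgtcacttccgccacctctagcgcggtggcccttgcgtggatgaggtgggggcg

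**Figure D3:**
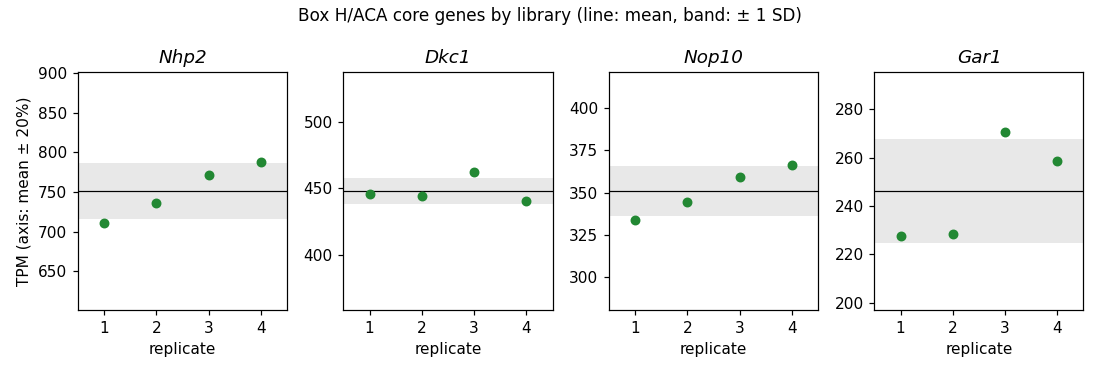
TPM of the box H/ACA core genes Nhp2, Dkc1, Nop10 and Gar1 in each library; each vertical axis spans the gene's mean ± 20% and does not start at 0, the line is the mean and the band ± 1 SD over the 4 libraries. Gar1 lies at 228 TPM in replicates 1 and 2 and at 270 and 258 TPM in replicates 3 and 4, while Dkc1 stays within 440 to 463 TPM.

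The 6 abundant nucleolar proteins made 45.5% of the members' TPM, with a median of 978.8 TPM. Npm1 (ENSMUSG00000057113.13, chromosome 11, 33152287 to 33163206), nucleophosmin, the chaperone that gives the outer nucleolus its material state, was at 5004, 5237, 5427 and 5482 TPM in replicates 1 to 4. It alone was 23.0% ± 0.51 of the members' TPM. With replicate 1 lowest and replicate 4 highest, it was the other of the 2 members with an unadjusted p under 0.05, against 5.69% of all genes tested, and did not pass the adjusted threshold (edgeR adjusted p = 0.630). Ncl, nucleolin, a histone and RNA chaperone, was at 1864 ± 51.0 TPM, and Npm1 to Ncl stood at 2.84 ± 0.042. Ddx21, an RNA helicase that works on ribosomal DNA transcription and snoRNA particles, was at 1060 ± 18.5 TPM. Mybbp1a, a nucleolar repressor of transcription, was at 898 ± 9.09 TPM, and Nolc1, the chaperone of snoRNA particles, at 709 ± 28.7 TPM. Gnl3 (ENSMUSG00000042354.6, chromosome 14, 31012434 to 31019089) was lowest of the role at 643, 629, 672 and 629 TPM, with replicate 3 highest.

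The 14 genes of the small subunit had a median of 265.2 TPM and made 16.03% of the members' TPM. Wdr43 (ENSMUSG00000041057.9, chromosome 17, 71616215 to 71659031), of the first complex to bind the precursor, led at 502, 495, 521 and 498 TPM. Imp4 (ENSMUSG00000026127.13, chromosome 1, 34439851 to 34449356), of the U3 particle, was lowest at 99.3, 96.5, 96.9 and 98.3 TPM. These ranges are narrow and lie 5.16-fold apart in the mean. Wdr75 and Heatr1, of the same early complex as Wdr43, were at 201 ± 6.68 and 307 ± 10.3 TPM. Imp3, which binds U3 snoRNA together with Imp4, was at 392 ± 16.8 TPM, and the ratio of Imp3 to Imp4 was 4.01 ± 0.199, or 2.74 with either transcript length. Nop14 and its partner Noc4l were at 295 ± 10.7 and 332 ± 6.06 TPM, a ratio of Noc4l to Nop14 of 1.13 ± 0.041.

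The enzymes and late factors of the small subunit followed. Bms1, a GTPase of the early particle, was at 213 ± 5.89 TPM, and its relative Tsr1, which keeps late particles from binding initiation factors, at 368 ± 4.75 TPM. The helicase Ddx10 was at 158 ± 6.42 TPM and Nat10, the acetyltransferase of 18S ribosomal RNA, at 127 ± 3.31 TPM. Rrp12, an export factor, was at 256 ± 5.35 TPM and Ltv1, a late assembly factor, at 274 ± 8.73 TPM. Nob1, the nuclease that makes the final cut of 18S ribosomal RNA, was at 158 ± 1.36 TPM. Its coefficient of variation, 0.860%, was the lowest of the 48. By dispersion over the abundance trend the lowest was Polr1b at 0.0923, with Nob1 at 0.173.

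The 13 genes of the large subunit spanned 14.1-fold, with a median of 310.1 TPM. That was the widest range of any role with summed exons, but with either transcript length the large subunit spanned 12.01-fold and the abundant proteins 13.9-fold. Noc2l (ENSMUSG00000095567.7, chromosome 4, 156236010 to 156247616), an early assembly and export factor, led at 731, 737, 775 and 764 TPM. Wdr12 (ENSMUSG00000026019.15, chromosome 1, 60069785 to 60098645) was lowest at 55.2, 52.4, 54.0 and 52.1 TPM. Noc2l was highest in replicate 3 and Wdr12 in replicate 1, and each ranged over less than 1.1-fold. Noc3l, the partner of Noc2l, was at 142 ± 4.61 TPM, so that Noc2l to Noc3l stood at 5.28 ± 0.110.

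Wdr12 joins Bop1 and Pes1 in the PeBoW complex, which is needed to process the precursor of 28S ribosomal RNA. Bop1 was at 406 ± 12.3 and Pes1 at 380 ± 8.41 TPM, a ratio of 1.07 ± 0.0159, and Bop1 to Wdr12 stood at 7.60 ± 0.284. With transcript lengths Bop1 to Wdr12 was 6.33. Bop1 was above Wdr12 in each library.

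The other large-subunit factors were closer together. Nop2, the cytosine methyltransferase of 28S ribosomal RNA, was at 566 ± 8.93 TPM, Nop16 at 365 ± 9.26 TPM and Rrs1, which helps to place the 5S particle, at 310 ± 10.1 TPM. Mrto4, a placeholder for a stalk protein in yeast, was at 298 ± 4.78 TPM, Nip7 at 296 ± 6.46 TPM and the helicase Ddx18 at 281 ± 5.59 TPM. Rrp1b, a nucleolar protein with a phosphatase-binding role, was at 147 ± 2.36 TPM. Ebna1bp2, an assembly factor of the early large subunit, was at 345, 356, 357 and 358 TPM, a mean of 354 ± 6.20 TPM. Replicate 1 stood below the other 3 libraries, which lay close together.

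Shared sequence limits some of these levels. More than 15% of the 50-base words of 5 members also occur in annotated transcripts of genes elsewhere, at 55.9% for Ddx18, 24.3% for Npm1, 20.4% for Pes1, 19.7% for Fbl and 16.5% for Nop56, against under 1% for 31 members. If fragments that map to several places were left out, as is the default of the counting program, these genes are undercounted. In GENCODE M21, exons of 14 members overlap those of a gene on the opposite strand, and the counting used strand. Strand does not separate genes on the same strand. There, small RNA genes share 8.002% of the M21 exon bases of Nop56, 3.85% of Gnl3, 2.12% of Ncl and 0.78% of Nop58. The counts were made on GENCODE vM13, so these shares may differ in the counting. Gnl3 was counted over 1883 exon bases, against 6101 in M21, and the small RNA genes that share its bases did hold fragments.

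The members were steady between replicates. The median coefficient of variation of the 48 was 2.41%, against 2.90% for the 3502 coding genes that had at least 50 TPM in each library, and 46 of 48 (95.8%) ranged over less than 1.1-fold, against 78.1% of those coding genes. The exceptions were Gar1 at 1.19-fold and Nhp2 at 1.11-fold. Relative to the abundance trend, the median dispersion was 0.654 for members and 0.804 for all genes tested, and it was under the trend in 72.9% of members and 59.3% of all genes tested. The 128 other genes of the pathway that were tested, described below, had a median of 0.623, so the low dispersion was not particular to the members.

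**Figure D4:**
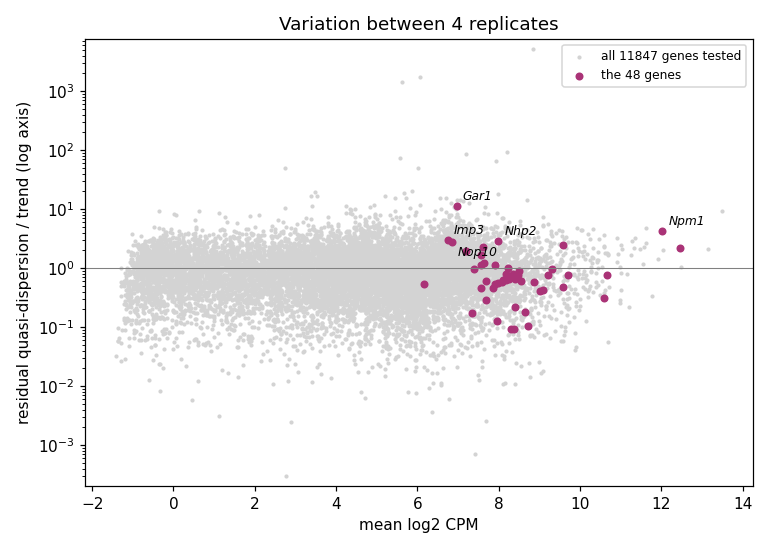
Residual quasi-dispersion over its abundance trend (log axis) against mean log2 CPM (counts scaled to library size) for all 11847 genes tested (grey) and the 48 members (coloured), with 5 members named. Members lie around or under 1, apart from Gar1 at 11.4 and a few others including Npm1 at 4.27.

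What movement there was placed replicate 1 low and replicate 3 high, the latter more clearly by TPM. On the scale of log2 CPM (counts scaled to library size), 25 of the 48 members were lowest in replicate 1, against 24.0% of all genes tested. Replicates 2, 3 and 4 were lowest in 4, 7 and 12 members, against 26.8%, 25.3% and 23.9% of all genes tested. Replicate 1 was lowest in 8 of 13 large-subunit genes, 4 of 6 abundant proteins, 3 of 4 in each snoRNA particle, 5 of 14 small-subunit genes and 2 of 7 polymerase I genes. By TPM, the count lowest in replicate 1 was 19 of 48, against 18.8% of all genes tested. The count highest in replicate 3 by TPM was 23 of 48, against 28.2% of all genes tested. By log2 CPM, 4, 16, 17 and 11 members were highest in replicates 1 to 4, so replicates 2 and 3 were nearly level. The matching shares of all genes tested were not computed. The shift was small, with a median log2 deviation of members from their own mean of -0.02 in replicate 1 and 0.02 in replicate 3. Replicates 2 and 4 lay between, and all genes tested had medians of about 0.00 in every library. No p is given, since the members share libraries.

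**Figure D5:**
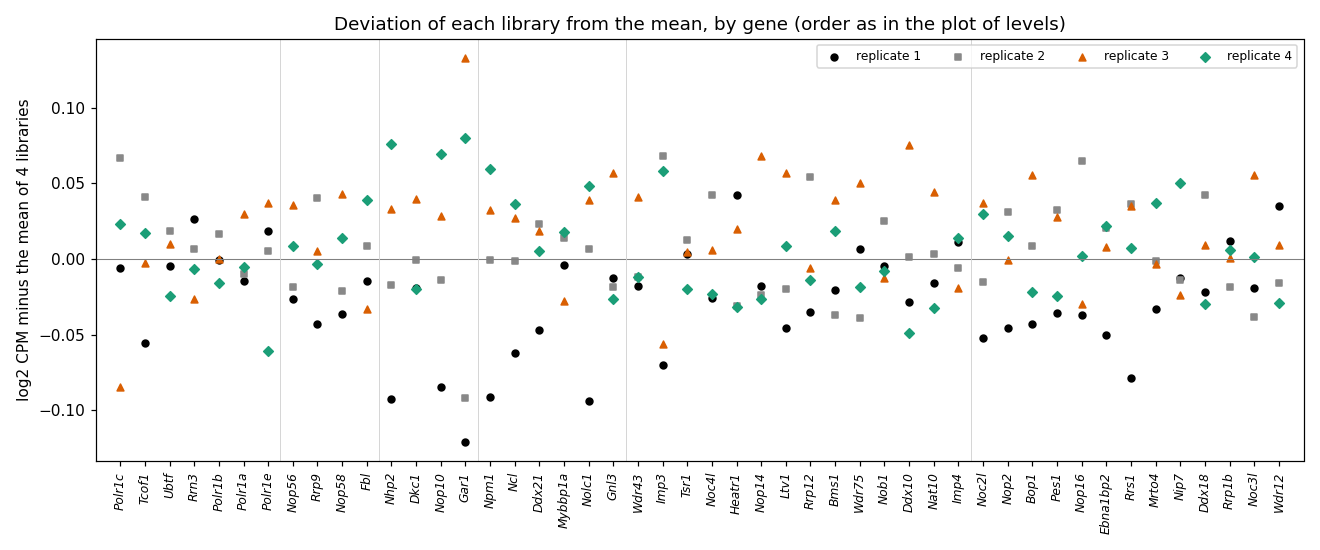
Log2 CPM (counts scaled to library size) of each library minus the mean of the 4, for each member, in the order of the plot of levels. Black circles (replicate 1) lie below 0 for most genes, and the spread is widest for Gar1, where the highest and the lowest library are 0.25 apart.

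Of 130 other genes of the pathway, listed by role with earlier results of these data known, 129 were matched. Of these, 128 had at least 10 TPM in each library and 84 (65.1%) at least 100 TPM, against 19.4% of the detected coding genes at 100 TPM. The median of the 129 was 137.6 TPM. Those with at least 100 TPM were 34 of 40 small-subunit factors, 31 of 48 large-subunit factors, 8 of 15 genes listed under the exosome and 6 of 14 polymerase I genes. The rest were 4 of 8 box C/D genes, 0 of 2 box H/ACA genes and 1 of 2 abundant nucleolar proteins. The highest were Rsl1d1, a nucleolar protein of the large-subunit path, at 855 ± 6.12 TPM, Npm3, a relative of Npm1, at 593 ± 13.2 TPM and Polr2f, a subunit shared by the polymerases, at 495 ± 5.59 TPM. At the other end, Wdr74 was at 21.1 ± 1.57 TPM, Ttf1, the terminator of ribosomal DNA transcription, at 21.8 ± 0.941 TPM, and Exosc6, an exosome subunit, is listed at 0 in every library. All 1326 exon bases of Exosc6 in GENCODE M21 lie within exons of Aars on the same strand, so the 0 does not show that the gene is silent. None of the 128 tested varied by edgeR at an adjusted p under 0.05, against 36 (0.304%) of all 11847 genes tested. By limma-trend none did either, against 40 of 11847. At an unadjusted p under 0.05 were 5 of the 128 by edgeR, against 5.69% of all genes tested, and 4 by limma-trend. Of the 128, 47 were lowest in replicate 1 by log2 CPM, 28 in replicate 2, 15 in replicate 3 and 38 in replicate 4. The shares of all genes tested were 24.0%, 26.8%, 25.3% and 23.9% in the same order.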

How the data were processed

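RNA of 4 Th17 libraries was sequenced in read pairs. The deposited values are raw fragment counts per gene, which the authors made with featureCounts 1.4.6-p4 and the GENCODE vM13 annotation, per the file headers: exons summed per gene, both ends aligned, strand option 2. The genome is mm10 per the labels. The alignment names carry the tag star2 and the output names a tag of 16 hr, per the file headers. No aligner version is given in the labels or headers used here.

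Symbols, transcripts and the exons used for overlaps were taken from GENCODE M21, on the same build. Gene coordinates are those deposited with the counts. TPM was computed here as count over the deposited exon length, scaled to 1000000 per library. Variability was tested on counts with edgeR 4.0.16 (R 4.3.3): TMM, filterByExpr, quasi-likelihood fit of an intercept with a robust prior, residual quasi-dispersion over the trend against the upper tail of F, and Benjamini-Hochberg adjustment over all genes tested. The steps were tested on simulated data. Named in full were the highest and lowest member of each role and members that varied or stood apart, and of the other factors the 3 highest and 3 lowest. The members and lists were chosen with earlier results of these data known. Alternatives were DESeq2 1.42.0 size factors, no filter, a prior without robust estimation, limma 3.58.1, other gene lengths, TPM without mitochondrial and ribosomal genes, and each replicate left out. Planned protein features were not run, since no protein sequences were used here. Figures used matplotlib 3.10.9.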

Additional observations from a re-analysis of the deposited data

Results flagged for a closer look

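Of 60 values and sums looked at over the 4 libraries, 1 had a library that stood apart from the rest by Dixon's criterion for the gap to the nearest library. About 1 in 20 would do so by chance. It was Ebna1bp2, with 344.7 TPM in replicate 1 and 355.8, 357.4 and 357.8 TPM in replicates 2, 3 and 4, a gap of 0.844 of the range. The whole range is small, with a coefficient of variation of 1.75%, and Ebna1bp2 did not vary in the edgeR fit (adjusted p = 0.993).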

How the results depend on the processing

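The count of members at 100 TPM or more in every library stayed within 43 to 46 under the 8 alternatives run, and that of the other factors within 80 to 96 under 7. The count of variable genes, 36 in the fit as reported, was 94 with no filter, 17 with a prior without robust estimation and 15 to 37 without one replicate, the lowest of them without replicate 4. The count of variable members, 1, was 0 with that prior, 0 with limma-trend and 0 to 0 without one replicate, and the cause was not tested. With the longest coding transcript as length and with the principal transcript, the ratios became 2.74 and 2.74 for Imp3 to Imp4, 6.33 and 6.33 for Bop1 to Wdr12, 6.22 and 6.22 for Polr1c to Polr1e, 2.03 and 2.03 for Nop56 to Fbl, and 2.50 and 2.50 for Nhp2 to Gar1. Each kept its direction. The median member level became 247.3 and 257.2 TPM and the members' summed TPM 22205 and 22472, against 355.2 and 27482 when TPM was rescaled without mitochondrial and ribosomal genes. The principal transcript length and the alternatives for Gar1 alone were chosen after seeing the data. The planned count of protein features was not run. No paired analysis was possible because there is 1 group. Every member had at least 1777 fragments in each library, while the levels rest on the length chosen and the tests on 4 libraries.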
